A study of Schizosaccharomyces pombe with 24 samples.

Results

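The genes described here encode the ribosome biogenesis factors of the fission yeast Schizosaccharomyces pombe, the proteins that build ribosomal subunits but do not stay in them. Members were protein-coding rows whose name was utp, nop, noc, rrp, dbp, enp, rpf or esf followed by a number (71 genes), or 1 of a list of further assembly factor names (43 genes). This gave 114 of the 5126 protein-coding genes, and all 114 were present in each of the 7 tables. By the gene descriptions in the files and the known complexes, 47 act on the small subunit and 43 on the large subunit, 5 act on both, 7 are core proteins of small nucleolar ribonucleoproteins (snoRNPs), 8 are exosome subunits and 2, dbp2 and dbp5, are RNA helicases with other main roles. The name rule also caught rrp1 and rrp2, which are described in the files as DNA helicases with ubiquitin ligase activity and not as assembly factors. They were kept in the counts and placed in no subunit class. The listed name nsa1 had no row. Its product was listed as wdr74, which was outside the rule.

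RNA was sequenced from 24 poly(A)+ libraries in 8 groups of 3 biological replicates. WT cells (AGP72, mating type h-) and cells lacking the phosphate-responsive transcription factor Pho7 (AGP83, h- pho7Δ::natMX) were taken in logarithmic growth at 0 h in YES, a rich medium with phosphate. The pho7Δ cells were then moved to ePMGT(-PO4), a synthetic medium without phosphate, and sampled at 6 starved times: 4, 8 and 12 h, and then 24, 36 and 48 h. WT and pho7Δ strains alike carried the auxotrophic alleles leu1-32, ura4-D18, his3-D1 and an ade6 allele (M210 or M216), and pho7Δ was 1 strain. No starved WT group was analysed here, so the part of Pho7 in the starvation course was not tested, and removal of phosphate cannot be told apart from the change of medium.

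The values are the authors' averages of normalized read counts, 1 per gene and group. Spread between replicates and the depth of each library were not analysed here, and no difference below has a test. A gene was counted as lower or higher in a comparison when its 2 averages differed by 2-fold or more and the greater one was at least 100. These sizes come from the lists of the study, which further required a p-value and, for starvation, a change at more than 1 time. Those criteria were not applied here, and the floor was taken on whichever average was greater. As a guide to small differences, 95% of measured protein-coding genes differed by no more than 1.17-fold between 36 and 48 h, a figure that holds biological change and error together and was chosen after values were seen. The deleted gene pho7 averaged 3147 in WT and 833 in pho7Δ at 0 h, then 514, 598, 545, 442, 386 and 334 at the 6 starved times. It was thus 3.78-fold lower in the deletion strain at 0 h and 9.41-fold lower at 48 h, and was never at 0.

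A ribosome is made in the nucleolus, where RNA polymerase I transcribes a long precursor that holds the 18S, 5.8S and 25S rRNAs. In the small subunit processome, the UTP-A and UTP-B complexes bind the start of the precursor, and the U3 snoRNP and the Mpp10 complex follow and lead to the cleavages that release the 18S rRNA precursor. Large subunit particles mature separately, through early helicase complexes such as the Urb1 complex, the Noc and PeBoW complexes, and late GTPases and ATPases that prepare the particle for export. The snoRNPs guide methylation (box C/D) and pseudouridylation (box H/ACA) of rRNA, and the exosome trims the ends of the precursors. Most of these roles are known from budding yeast, and the files mark many of the fission yeast products as predicted. In both yeasts, genes for these factors are known to be transcribed together and to be curtailed when nutrients run short.

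Which of these transcripts were lower during starvation, and for how long, was read first against pho7Δ at 0 h, the unstarved group of the same genotype. At 4 h, 15 members were lower, which is 13.2% of the 114, beside 4.00% of all measured protein-coding genes. At 8 h the number was 51 (44.7%, beside 8.36% of all), at 12 h 46 (40.4%, beside 9.05%) and at 24 h 49 (43.0%, beside 12.1%). At both 36 h and 48 h it was 55 (48.2%, beside 13.3% of all genes at each time). No member was higher at any time, beside 5.17%, 9.95%, 10.5%, 12.2%, 12.5% and 12.4% of all genes from 4 to 48 h. The same reference stands behind all 6 comparisons, so they do not repeat each other independently.

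The size of the difference was moderate and lasting. The median log2 ratio of the members was -0.68, -0.95, -0.91, -0.89, -0.95 and -0.94 over the 6 times, while that of all measured protein-coding genes lay between -0.12 and 0.01. At 8 h the median member was down by 1.94-fold, just inside the 2-fold limit. Of the 114 members, 103 lay below their 0 h average at all 6 times, by any amount. The share of all genes that did so was not computed. The exosome gene rrp42 was the only one above it at all 6. By the 2-fold limit, 62 of the 114 members were lower at 1 or more times, beside 18.9% of the genes measured at all 6 times, and 52 at none. At every time 11 were lower, beside 1.30% of all. The 11 were has1, sda1, dbp3, nop12, puf6, kri1, nop9, rok1, utp23, utp25 and nhp2. Together the members made up 2.56% of all summed averages in WT and 2.28% in pho7Δ at 0 h, but 1.24% to 1.38% at the starved times.

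**Figure D1:**
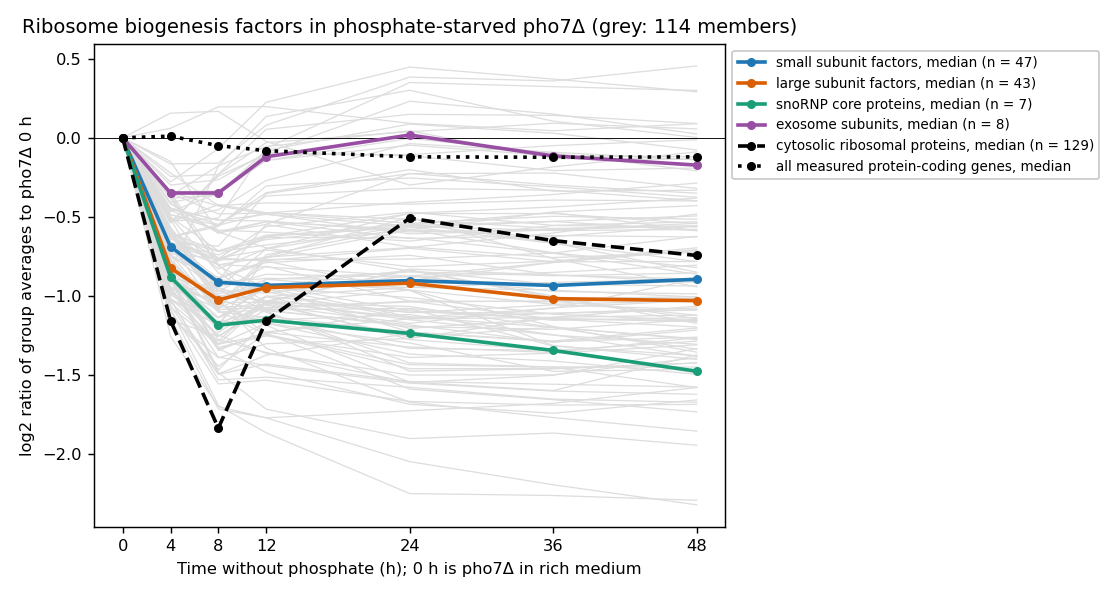
Log2 ratio of each group average to pho7Δ at 0 h (vertical axis) against hours without phosphate (horizontal axis). Grey lines are the 114 members and coloured lines the medians of 4 classes, with cytosolic ribosomal proteins dashed and all measured protein-coding genes dotted. Small and large subunit factors lay near -0.9 to -1.0 from 8 h on, whereas ribosomal proteins reached -1.83 at 8 h and -0.51 at 24 h.

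The proteins of the cytosolic ribosome, which these factors assemble, had a different time course. Of 129 ribosomal protein genes, 86 were lower at 4 h, 126 at 8 h and 92 at 12 h, but only 13 at 24 h, 24 at 36 h and 33 at 48 h. The shares of all measured protein-coding genes were 4.00%, 8.36%, 9.05%, 12.1%, 13.3% and 13.3%. At 24 h the ribosomal protein share was thus below that of all genes. The median log2 ratio of the ribosomal protein genes was -1.16, -1.83, -1.16, -0.51, -0.65 and -0.74 at the 6 times. Between 8 and 48 h the ribosomal protein median differed by 1.05 on the log2 scale, and that of the members by 0.02. Up to 12 h, then, ribosomal protein transcripts were lower in median than those of the assembly factors relative to 0 h, and from 24 h on they were higher. Their share of all summed averages was 13.3% at 0 h, 4.00% at 8 h and 9.77% at 24 h.

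The 2 groups of genes also differed in the sequences before their transcript starts. HomolD (core CAGTCAC) and HomolE (core ACCCTAC) are promoter elements known from fission yeast ribosomal protein genes, and PAC (core GATGAG) and RRPE (core AAATTTT) are elements known from budding yeast ribosome biogenesis genes. The cores were searched on both strands of the 300 bases before each transcript start in the RefSeq annotation (ASM294v3). The HomolD core lay in 92.2% of 129 ribosomal protein promoters, in 4.74% of the promoters of all 5105 protein-coding genes with a window and in 2.63% of the member promoters, namely those of mpp10, nog1 and nop10. HomolE was found in 32.6% of ribosomal protein promoters, 2.59% of all promoters and 1.75% of member promoters (mpp10 and rrp1402). All promoters included those of the ribosomal protein genes, which made up 119 of the 242 with HomolD and 42 of the 132 with HomolE. The lower share in members than in all promoters therefore does not set members below other genes. Either element was present for 4 members and for 125 ribosomal protein genes.

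Set against all promoters, ribosomal protein ones included, the RRPE core was the only one of these that was more common in member promoters. It was present in 47.4% of them (54 genes), in 31.9% of all and in 26.4% of ribosomal protein promoters. The share was much the same before 50 other assembly factors (48.0%) and 18 RNA polymerase I genes (50.0%). Among the members it lay before 40.4% of small subunit and 55.8% of large subunit genes. This core is made of A and T alone, and its reverse complement overlaps it by 6 letters. Member promoters had an A+T content of 69.6%, against 67.7% for all and 66.3% for ribosomal protein genes. PAC lay in 6.14% of member promoters (7 genes) and 8.33% of all. The Pho7 binding consensus was in 0 of the 114 member windows and in 2.15% of all windows, so at that share the members' 0 is a difference of few genes. A match is a run of letters and not a shown binding site.

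**Figure D2:**
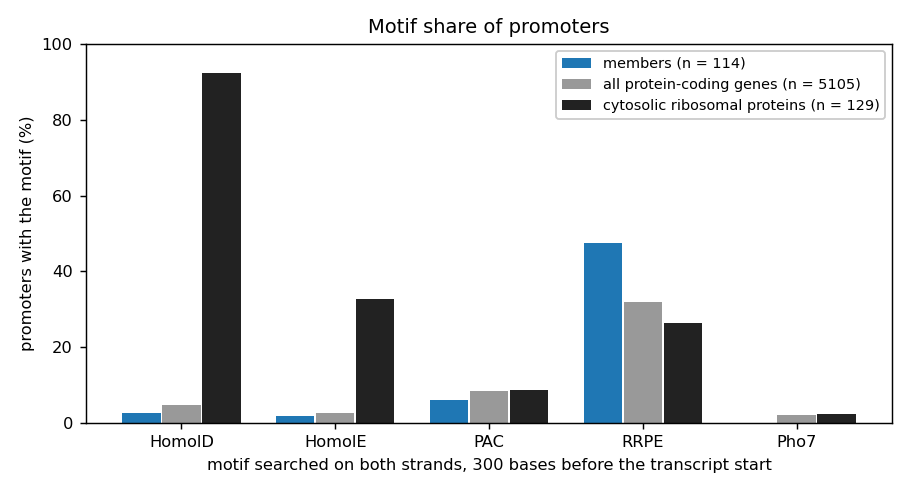
Share of promoters (vertical axis, %) with a match on either strand in the 300 bases before the transcript start, for 5 motifs (horizontal axis) in the 114 members, all 5105 protein-coding genes and 129 cytosolic ribosomal protein genes. HomolD and HomolE shares were highest before ribosomal protein genes. RRPE was before 47.4% of members and 31.9% of all genes, and no member window held the Pho7 motif.

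The windows below are shown to set assembly factor promoters with and without HomolD beside that of a ribosomal protein. They were picked for these features and not as typical ones. They run 5′ to 3′ on the gene's strand in ASM294v3 and end at the base before the transcript start, and capitals mark matches to the 4 cores. The first belongs to dbp3, a large subunit RNA helicase and the member with the greatest difference at 48 h (chrII:3338420-3338719, plus strand). It holds 1 RRPE core, 206 bases before the start. The next belongs to nog1, a nucleolar GTPase of large subunit assembly (chrII:1239209-1239508, minus strand), and is 1 of the 3 member windows with HomolD, which lies on the opposite strand 81 bases before the start. The nog1 window also holds an RRPE core, on the opposite strand 209 bases before the start. The last belongs to rpl8, a large subunit ribosomal protein (chrII:2045175-2045474, plus strand), with HomolE 51 bases and HomolD 36 bases before the start.
dbp3: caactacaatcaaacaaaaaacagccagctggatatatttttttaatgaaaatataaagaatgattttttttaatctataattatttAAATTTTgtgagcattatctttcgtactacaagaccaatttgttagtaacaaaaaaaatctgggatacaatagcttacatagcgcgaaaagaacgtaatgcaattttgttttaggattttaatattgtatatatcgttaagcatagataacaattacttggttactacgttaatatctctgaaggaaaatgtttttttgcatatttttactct
nog1: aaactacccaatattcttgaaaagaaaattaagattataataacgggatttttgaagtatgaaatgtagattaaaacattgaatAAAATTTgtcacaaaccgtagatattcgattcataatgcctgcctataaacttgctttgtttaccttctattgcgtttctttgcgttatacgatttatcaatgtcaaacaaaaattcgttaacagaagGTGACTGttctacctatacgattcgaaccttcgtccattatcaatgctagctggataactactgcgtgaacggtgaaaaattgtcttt
rpl8: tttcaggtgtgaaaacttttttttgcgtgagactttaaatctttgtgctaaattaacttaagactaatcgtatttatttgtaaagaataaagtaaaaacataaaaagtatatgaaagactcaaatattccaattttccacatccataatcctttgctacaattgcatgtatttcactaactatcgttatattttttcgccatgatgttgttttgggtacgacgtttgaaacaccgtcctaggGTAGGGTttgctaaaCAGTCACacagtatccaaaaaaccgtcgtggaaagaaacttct

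rpl8 averaged 46706 in WT and 58542 in pho7Δ at 0 h, then 35092, 22195, 27861, 35812, 33651 and 30631. It was down by 2.64-fold at 8 h and by 1.63-fold at 24 h. dbp3 averaged 6312 in WT and 5596 in pho7Δ at 0 h, then 2548, 1707, 1642, 1356, 1225 and 1122. Its average was lower at each later time, to 3.28-fold below 0 h at 8 h and 4.99-fold below at 48 h. Within the members, nog1 with its HomolD core was down by 1.47-fold at 8 h and by 1.19-fold at 24 h, and nop10 by 2.27-fold and 1.42-fold.

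The remaining HomolD member, mpp10, shares its upstream region with a ribosomal protein gene, rps23, transcribed the other way. Mpp10 is the scaffold of the complex that brings Imp3 and Imp4 to the U3 snoRNA. The whole stretch between the 2 transcript starts is 122 bases long (chrI:2135811-2135932, plus strand, ASM294v3). It is shown because 1 HomolD and 1 HomolE core, 71 and 62 bases before the mpp10 start, lie before both genes. By contrast, the 194 bases between the divergent starts of erb1 and nop4 (chrII:2716660-2716853, plus strand) join 2 large subunit factors and hold none of the 4 cores.
rps23 and mpp10: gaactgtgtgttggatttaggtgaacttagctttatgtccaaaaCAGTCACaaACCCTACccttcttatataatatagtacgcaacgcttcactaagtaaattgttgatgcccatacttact
erb1 and nop4: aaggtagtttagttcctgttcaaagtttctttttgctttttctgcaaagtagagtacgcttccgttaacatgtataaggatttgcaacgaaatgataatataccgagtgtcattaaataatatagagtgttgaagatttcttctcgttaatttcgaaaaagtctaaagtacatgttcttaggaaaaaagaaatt

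rps23 averaged 14119 in WT and 20935 in pho7Δ at 0 h, then 10827, 6710, 9266, 13580, 12239 and 11701. mpp10 averaged 2087 in WT and 3237 in pho7Δ at 0 h, then 1773, 1435, 1741, 1800, 1770 and 1791. Relative to 0 h, rps23 was down by 3.12-fold at 8 h and 1.54-fold at 24 h, and mpp10 by 2.26-fold and 1.80-fold. Both had their lowest average at 8 h. The 2 neighbours erb1 and nop4 had unlike courses. erb1, of the PeBoW complex, was down by 1.74-fold at 8 h and 2.78-fold at 24 h, while nop4, an RNA-binding protein of early large subunit particles, was at 2.52-fold and 2.50-fold. In all, 21 members had a divergent protein-coding start within 300 bases. The partner was a member for 2 of them (erb1 and nop4), a ribosomal protein gene for mpp10 and another gene for 18.

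Small and large subunit factors were then set side by side. At 8 h, 18 of the 47 small subunit factors (38.3%) and 24 of the 43 large subunit factors (55.8%) were lower than in pho7Δ at 0 h. At 48 h the counts were 21 (44.7%) and 24 (55.8%). Of all measured protein-coding genes, 8.36% were lower at 8 h and 13.3% at 48 h. Every member of both classes lay below 0 h at 4 and at 8 h, by any amount, and the share of all genes that did so is not given here. The small subunit median was -0.69, -0.91, -0.93, -0.90, -0.93 and -0.89 at the 6 times, and that of the large subunit -0.82, -1.02, -0.95, -0.92, -1.02 and -1.03. The medians differed by 0.01 to 0.14. Among the members with no gene on the opposite strand, the sign was the reverse, at -0.03 to -0.26, so the data do not set 1 subunit's factors below the other's. The spread inside each class was wider than this difference. At 48 h small subunit factors ranged from -1.67 to 0.09 and large subunit factors from -2.32 to 0.30.

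**Figure D3:**
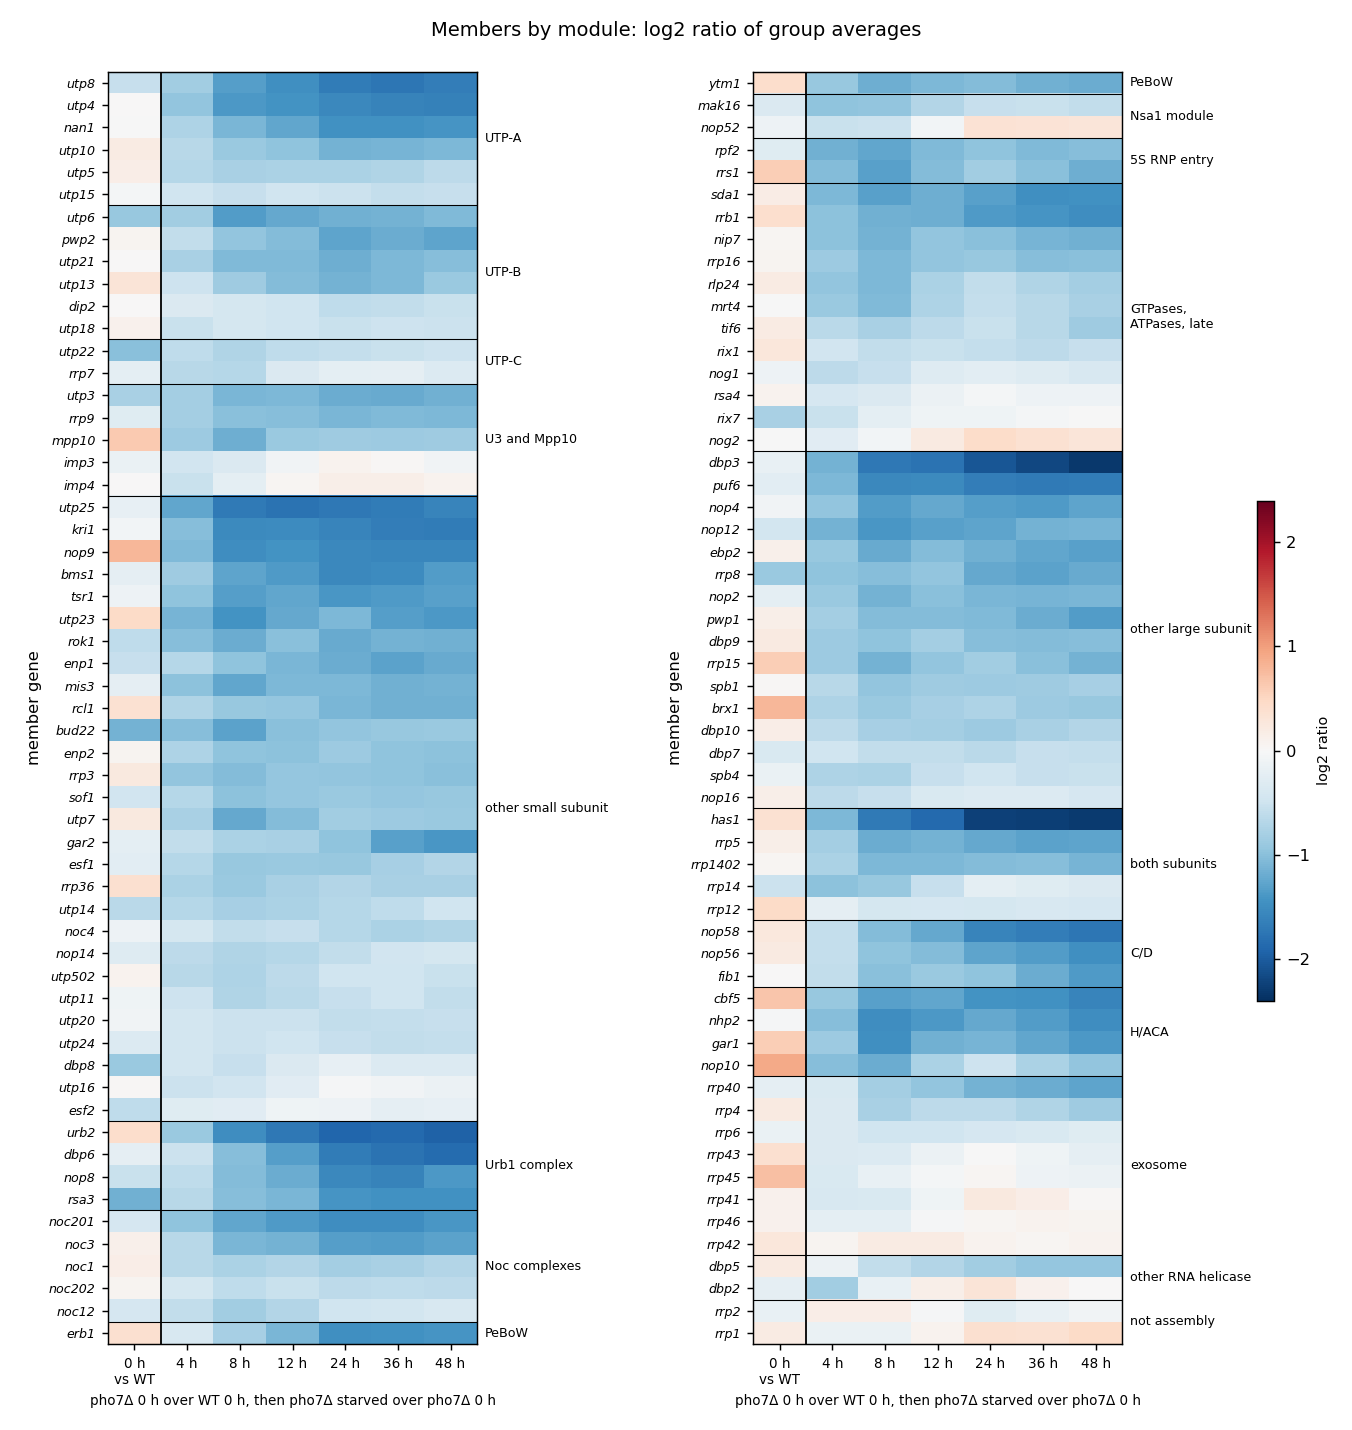
Log2 ratio of group averages (colour) for all 114 members (rows, by module), with pho7Δ at 0 h over WT in the first column and pho7Δ at 4 to 48 h over pho7Δ at 0 h in the next 6. The Urb1 complex, has1 and dbp3 were among the darkest blue at late times, and most exosome rows (not rrp40) were pale.

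Within the small subunit processome the module medians differed, but their order changed with time. UTP-A, the complex that first binds the precursor and is tied to its transcription, had a median of -0.71 at 4 h, -0.99 at 8 h and -1.30 at 24 h (6 genes). UTP-B, the next to bind, was at -0.56, -0.90 and -1.14 (6 genes). The U3 and Mpp10 proteins were at -0.81, -1.0 and -0.85 (5 genes). UTP-C, made up here of utp22 and rrp7, was at -0.63, -0.70 and -0.40. The genes inside a module differed widely. In UTP-A the ratios at 24 h ran from -1.68 (utp8) to -0.52 (utp15).

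In UTP-A, the lowest profile belonged to utp8, annotated as a t-UTP subunit. It averaged 4434 in WT and 3002 in pho7Δ at 0 h, then 1692, 1194, 1079, 935, 899 and 953. It was down by 2.52-fold at 8 h and 3.15-fold at 48 h. The WD repeat subunit utp15 of the same complex averaged 2967 in WT and 2883 in pho7Δ at 0 h, then 2060, 1965, 2076, 2017, 1938 and 1962. It was flat from 4 h on and 1.39-fold to 1.49-fold below 0 h throughout.

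In UTP-B, utp6 averaged 3163 in WT and 1689 in pho7Δ at 0 h, then 944, 666, 722, 764, 769 and 808. utp18 averaged 2470 and 2670 at 0 h, then 1847, 1992, 1924, 1837, 1894 and 1870. utp6, a structural subunit, was thus 2.54-fold down at 8 h where its partner utp18 was 1.34-fold down. In UTP-C, rrp7 averaged 1369 in WT and 1171 in pho7Δ at 0 h, then 740, 729, 918, 1002, 1004 and 939. Its partner utp22 averaged 4982 and 2479 at 0 h, then 1632, 1509, 1619, 1673, 1720 and 1762. Both were lowest at 8 h, and neither reached 2-fold below pho7Δ at 0 h.

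Around the U3 snoRNA, imp4 and utp3 marked the extremes. The Mpp10 partner imp4 averaged 2182 in WT and 2195 in pho7Δ at 0 h, then 1511, 1872, 2279, 2433, 2422 and 2337. It was 1.45-fold down at 4 h and slightly above 0 h from 12 h on. utp3 (Sas10 in budding yeast) averaged 8537 and 4946 at 0 h, then 2806, 2306, 2328, 2164, 2138 and 2235. It was 2.29-fold down at 24 h. imp3, the other Mpp10 partner, was down by 1.38-fold at 4 h and 1.05-fold at 48 h, so both Imp genes lay near 0 h late in the course and mpp10 itself did not.

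The other 28 small subunit factors held the gene with the greatest difference at 4 h, utp25, needed for the early cleavages in budding yeast. It averaged 2276 in WT and 1988 in pho7Δ at 0 h, then 834, 612, 583, 602, 622 and 666. It was 2.38-fold down at 4 h and 3.25-fold at 8 h. esf2, a partner of the helicase Dbp8 in budding yeast, averaged 2205 and 1440 at 0 h, then 1171, 1199, 1349, 1332, 1248 and 1262. It was the least reduced of the 28 by its median over the starved times, at 1.20-fold down at 8 h and 1.14-fold at 48 h. gar2, the fission yeast counterpart of nucleolin, had the highest WT average of all members at 26246, which is 12929 per kilobase of transcript. It averaged 22280 in pho7Δ at 0 h, then 14705, 13174, 12982, 11422, 8971 and 8442. Its average kept getting lower after 24 h, from 1.95-fold to 2.64-fold below 0 h.

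In the large subunit pathway, the Urb1 complex of early particles, as made up here, was the lowest module in median from 12 h on. Its 4 genes under the rule, urb2, dbp6, nop8 and rsa3, were all past 2-fold from 8 h on. Their medians were -0.63 at 4 h, -1.04 at 8 h, -1.61 at 24 h and -1.65 at 48 h. The gene urb1 itself was outside the rule and less reduced at these times. Its log2 ratio was -0.60 at 4 h, -0.88 at 8 h, -1.14 at 24 h and -1.0 at 48 h. urb2 averaged 1376 in WT and 1844 in pho7Δ at 0 h, then 994, 660, 562, 494, 506 and 480. It was 2.80-fold down at 8 h and 3.84-fold at 48 h. The helicase gene dbp6 averaged 4364 and 3768 at 0 h, then 2640, 1856, 1499, 1184, 1107 and 1043. Its average at 48 h was 1.78-fold below that at 8 h, the greatest late decline among the members. rsa3 averaged 600 in WT and 269 in pho7Δ at 0 h, then 171, 132, 125, 100.4, 98.7 and 98.6.

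PeBoW, which is needed to process the large subunit rRNA precursor, was represented by erb1 and ytm1. erb1 averaged 4710 in WT and 6127 in pho7Δ at 0 h, then 4699, 3520, 2873, 2206, 2228 and 2287. ytm1, its binding partner, averaged 2597 and 3482 at 0 h, then 1853, 1551, 1649, 1703, 1575 and 1520. erb1 was less reduced at 4 h than ytm1 (1.30-fold against 1.88-fold) and more so at 24 h (2.78-fold against 2.04-fold).

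The Nsa1 module of early particles, made up here of nop52 and mak16 alone, had the median nearest to 0 h among large subunit modules late in the course. This median, -0.10 at 24 h and -0.14 at 48 h, lay between opposite values. nop52 was at 0.35 and 0.30, and mak16 at -0.55 and -0.59. nop52, the fission yeast Rrp1 of large subunit particles, averaged 1319 in WT and 1213 in pho7Δ at 0 h, then 842, 853, 1159, 1545, 1518 and 1493. It was 1.44-fold below 0 h at 4 h and 1.27-fold above it at 24 h. mak16 averaged 3531 and 2763 at 0 h, then 1413, 1434, 1699, 1882, 1916 and 1840. It was 1.95-fold down at 4 h and 1.5-fold at 48 h. wdr74, the Nsa1 row outside the rule, averaged 2796 and 2663 at 0 h, then 1725, 1700, 1849, 1897, 1825 and 1737. Its log2 ratio was -0.49 at 24 h and -0.62 at 48 h.

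The 5S RNP enters large subunit particles with Rpf2 and Rrs1. rpf2 averaged 4003 in WT and 3264 in pho7Δ at 0 h, then 1470, 1368, 1577, 1676, 1575 and 1600. rrs1 averaged 1299 and 1951 at 0 h, then 949, 791, 954, 1094, 975 and 866. The 2 genes had like courses, 2.39-fold and 2.47-fold down at 8 h.

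Among the 12 GTPases, ATPases and late factors, the ends of the range were sda1 and nog2. sda1, needed for export of the large subunit in budding yeast, averaged 3366 in WT and 3813 in pho7Δ at 0 h, then 1815, 1542, 1694, 1552, 1371 and 1384. The GTPase gene nog2 averaged 6320 and 6268 at 0 h, then 5167, 5980, 7325, 8546, 8108 and 7669. sda1 was 2.1-fold to 2.78-fold down at every time, whereas nog2 was 1.21-fold down at 4 h and 1.36-fold up at 24 h. Those between them by that median included the AAA ATPase gene rix7 (1.45-fold down at 4 h, 1.01-fold at 48 h) and rrb1. rrb1 is described as a WD repeat protein and is a chaperone of a ribosomal protein in budding yeast. It was 1.99-fold down at 4 h and 2.82-fold at 48 h, when sda1 was 2.76-fold down.

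Of the 16 other large subunit factors, dbp3 (given above) was lowest and nop16 highest. nop16 averaged 1648 in WT and 1826 in pho7Δ at 0 h, then 1185, 1249, 1415, 1464, 1452 and 1387. The RNA-binding puf6 was 2.94-fold down at 8 h and 3.21-fold at 48 h. The DEAD-box helicases of the large subunit did not move alike. At 48 h dbp9 was 2.02-fold down, dbp10 1.63-fold, dbp7 1.48-fold and spb4 1.44-fold, beside 4.99-fold for dbp3 and 3.61-fold for dbp6.

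The rule held 3 pairs of related genes, and the members of each pair differed in course. noc201 averaged 5942 in WT and 4496 in pho7Δ at 0 h, then 2314, 1897, 1749, 1591, 1592 and 1716. noc202, the other Noc2-like gene, averaged 2589 and 2708 at 0 h, then 2031, 1783, 1876, 1743, 1766 and 1754. noc201 was 2.62-fold down at 48 h and noc202 1.54-fold, so the ratio of noc201 to noc202 was smaller in starved cells. noc1 averaged 3538 and 3965 at 0 h, then 2496, 2345, 2426, 2255, 2310 and 2450. noc12, annotated as Noc1 related, averaged 576 and 434 at 0 h, then 290, 244, 267, 312, 321 and 333. Both were lower at every starved time than at 0 h, by 1.30-fold to 1.78-fold for noc12 and 1.59-fold to 1.76-fold for noc1.

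The third pair, rrp14 and rrp1402, acts on both subunits. rrp14 averaged 2733 in WT and 1917 in pho7Δ at 0 h, then 966, 1027, 1313, 1640, 1558 and 1504. rrp1402 averaged 992 and 1027 at 0 h, then 604, 484, 488, 500.2, 503 and 472. rrp14 was close to 2-fold down at 4 h and 1.27-fold at 48 h, and rrp1402 was 1.70-fold and 2.18-fold down. How reads shared by near copies were assigned could not be learned from the sources used here.

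The helicase gene has1, which serves both subunits, had 1 of the 2 greatest differences of all members. It averaged 3770 in WT and 4883 in pho7Δ at 0 h, then 2309, 1512, 1342, 1028, 1020 and 998. It was 3.23-fold down at 8 h and 4.89-fold at 48 h. rrp12, an export factor of both subunits in budding yeast, averaged 4379 and 6048 at 0 h, then 5185, 4498, 4548, 4524, 4605 and 4589. From 8 h on it was flat, about 1.3-fold below 0 h.

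The snoRNP core proteins were lower as a class than either subunit's factors in median, at -0.88, -1.18, -1.15, -1.24, -1.34 and -1.47 over the 6 times. At 8 h 6 of the 7 genes were lower, beside 8.36% of all measured protein-coding genes. In the box C/D class, nop58 averaged 10268 in WT and 12207 in pho7Δ at 0 h, then 8194, 5963, 5182, 4062, 3878 and 3677. fib1, the fibrillarin methyltransferase, averaged 11255 and 11319 at 0 h, then 7507, 5619, 6090, 5808, 4956 and 4428. nop56 was down by 2.78-fold at 48 h beside 3.32-fold for nop58 and 2.56-fold for fib1. All 3 C/D genes under the rule had their lowest average at 48 h. The C/D core gene snu13 fell outside the rule and was counted with the other assembly factors. It averaged 6021 in WT and 7576 in pho7Δ at 0 h, then 4387, 3811, 4423, 4591, 4231 and 3846. Its lowest average thus came at 8 h (log2 ratio -0.99, beside -0.98 at 48 h), and it stayed short of 2-fold throughout.

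In the H/ACA class, the pseudouridine synthase gene cbf5 averaged 8671 in WT and 13738 in pho7Δ at 0 h, then 7340, 5565, 5811, 5086, 5032 and 4603. nop10 averaged 1355 and 2544 at 0 h, then 1252, 1120, 1510, 1797, 1499 and 1325. nhp2 and gar1 were 2.81-fold and 2.76-fold down at 8 h. cbf5 had its lowest average at 48 h, and nop10, gar1 and cbf5 started from a higher pho7Δ 0 h average than in WT, so their ratios to WT are smaller than those to pho7Δ 0 h.

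The exosome subunits stood apart from the assembly factors proper. Their median was -0.35 at 4 and 8 h, -0.12 at 12 h and 0.02 at 24 h, and only rrp40 was ever lower by 2-fold. rrp40 averaged 1235 in WT and 1070 in pho7Δ at 0 h, then 831, 609, 555, 489, 467 and 442. rrp42 averaged 1231 and 1480 at 0 h, then 1543, 1695, 1697, 1577, 1527 and 1575. The ring subunit gene rrp45, lowest of all members in WT per kilobase (264) as well as in average, was at 396 and 650 at 0 h, then 504, 575, 625, 670, 593 and 591. The exosome also works on many RNAs outside ribosome assembly.

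Of the helicases dbp2 and dbp5, with roles in mRNA surveillance and export, dbp2 did not follow the assembly factors. dbp5 was less reduced at 4, 8 and 12 h, at -0.15, -0.59 and -0.70 beside member medians of -0.68, -0.95 and -0.91. At 24, 36 and 48 h it lay near them, at -0.84, -0.92 and -0.94 beside -0.89, -0.95 and -0.94. dbp2 averaged 12098 in WT and 10432 in pho7Δ at 0 h, then 5824, 9225, 11455, 12850, 11223 and 10448. dbp5 averaged 4006 and 4631 at 0 h, then 4178, 3067, 2860, 2584, 2440 and 2420. dbp2 was 1.79-fold down at 4 h and 1.13-fold at 8 h, and dbp5 drifted to 1.91-fold down at 48 h. For the members that are no assembly factors, rrp1 averaged 918 and 1053 at 0 h, then 939, 942, 1113, 1374, 1350 and 1442. rrp2 averaged 1538 and 1355 at 0 h, then 1510, 1522, 1334, 1102, 1193 and 1275. Neither came near 2-fold in either direction.

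The late course was read between 8 and 48 h of starvation. Over these hours 67 of the 114 members differed by no more than 1.17-fold, 24 were further up and 23 further down. The shares of all genes by this guide were not computed, so the counts do not set the members apart. The members at the upper end were nop52 (0.81 on the log2 scale), rrp1 (0.61), rrp14 (0.55) and noc12 (0.45). At the lower end were dbp6 (-0.83), nop58 (-0.70), gar2 (-0.64), erb1 (-0.62), dbp3 (-0.61) and has1 (-0.60). No module reached the ribosomal protein median of 1.05. Of the 7 pho7Δ averages, the lowest was the one at 8 h for 33 members and the one at 48 h for 28. For 18 members each it was that at 4 h or at 24 h, for 15 that at 36 h, and for 1 each that at 0 h or at 12 h.

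**Figure D4:**
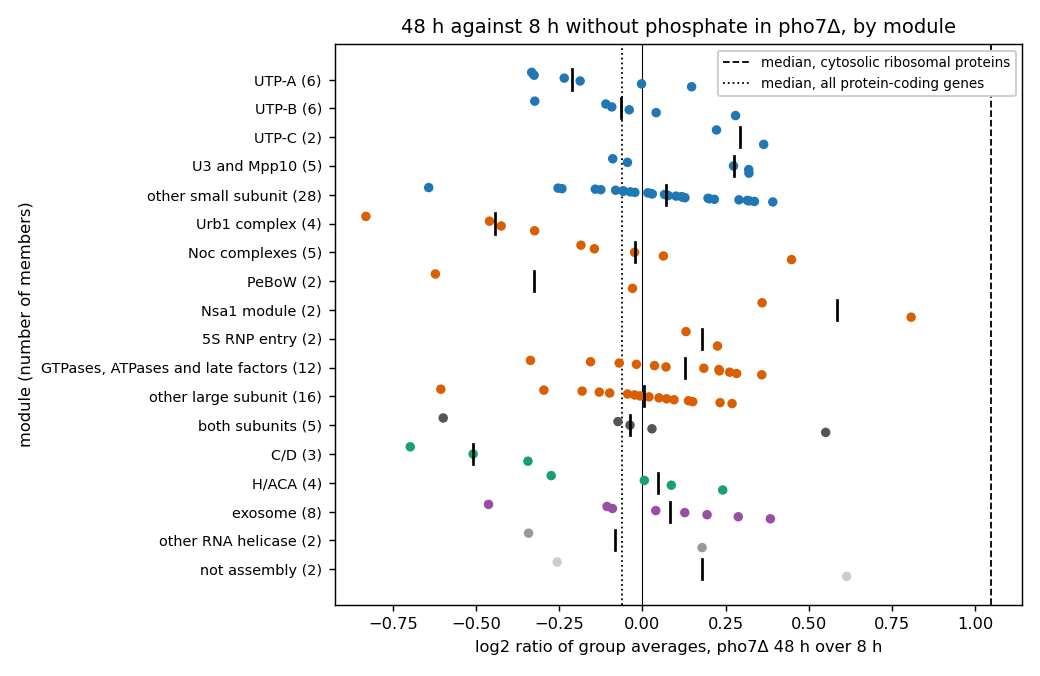
Log2 ratio of the 48 h to the 8 h average in pho7Δ (horizontal axis) for each member (points), by module (vertical axis, number of members in brackets). Bars are module medians. The Urb1 complex and box C/D points lay to the left, the Nsa1 module to the right, and all members lay left of the ribosomal protein median at 1.05.

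By the 2-fold limit and the median, the effect of the deletion in rich medium was small by comparison. Between pho7Δ and WT at 0 h, 3 members were lower by 2-fold (2.63%, beside 7.40% of all measured protein-coding genes) and 0 were higher (beside 7.88%). Their median log2 ratio was 0.01, against 0.10 for all genes, with 54 members below WT and 60 above. By the 1.17-fold guide, which came from late starved times of 1 strain, 28 members were lower and 23 higher. The members' median thus joins differences in both directions. The share of all genes past this guide was not computed, so these counts do not set the members apart. The 3 past 2-fold were rsa3 (2.23-fold), bud22 (2.20-fold) and utp22 (2.01-fold), each close to the limit. bud22, which aids small subunit assembly, averaged 4401 in WT and 1999 in pho7Δ at 0 h, then 990, 820, 998, 1039, 1062 and 1076. Nearest to the limit but short of it were utp6, rrp8, dbp8, utp3 and rix7 on the lower side and nop10, brx1, nop9, rrp45 and cbf5 on the higher side. Small subunit factors had a median of -0.10 and large subunit factors of 0.05, and H/ACA proteins one of 0.63.

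**Figure D5:**
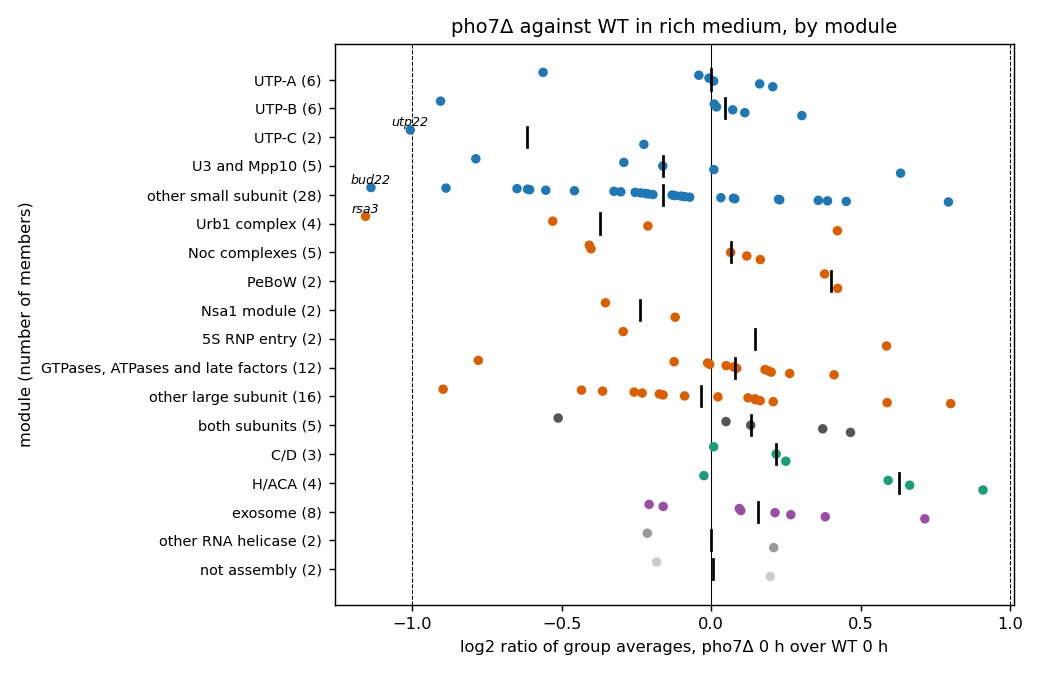
Log2 ratio of pho7Δ at 0 h to WT at 0 h (horizontal axis) for each member (points), by module (vertical axis, number of members in brackets). Bars are module medians and dashed lines the 2-fold limits. rsa3, bud22 and utp22 lay past the lower limit and no member past the upper one.

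Against WT at 0 h, the reference of the study, genotype and starvation act together. The members counted as lower were 31 at 4 h (27.2%, beside 10.6% of all measured genes), 49 at 8 h (43.0%, beside 15.1%), 41 at 12 h (36.0%, beside 14.4%), 45 at 24 h (39.5%, beside 16.9%), 47 at 36 h (41.2%, beside 17.3%) and 48 at 48 h (42.1%, beside 17.4%). None was higher at these times, beside 14.7%, 16.6%, 17.3%, 17.9%, 17.9% and 17.7% of all genes. At all 6 starved times 27 of the 114 members were lower, beside 6.90% of the genes measured at each of them. Of these, rsa3, utp22 and bud22 were lower at 0 h as well, beside 4.29% of all genes for the 7 times together. The greatest difference from WT at 48 h was that of rsa3, at 6.08-fold, then dbp3 at 5.63-fold and utp8 at 4.65-fold.

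Of the rest of the pathway, RNA polymerase I subunits and the factors that start or end its transcription (18 genes by description) were also set against pho7Δ at 0 h. At 4, 8 and 48 h their medians were -0.65, -0.75 and -0.68. Of the 18, 5 were lower at 8 h, beside 8.36% of all measured protein-coding genes. The 50 other assembly factors named by their descriptions had medians of -0.60, -0.63 and -0.50. Of these 50, 9 were lower at 8 h, beside 8.36% of all genes. At 48 h 5 were lower, a smaller share than the 13.3% of all genes, and 1 was higher, beside 12.4%. So the members chosen by name were lower in median than the remaining factors at each of these times. Among 4829 other measured protein-coding genes, the 10 whose 8 averages followed the members' mean profile most closely on the log2 scale had a Pearson r of 0.993 to 0.997 over the 8 groups. They began with los1 (0.997), a tRNA export factor, and ubp3 (0.996), a ubiquitin hydrolase, and included ppp1 (0.995), the pescadillo protein that forms PeBoW with Erb1 and Ytm1. The 8 groups share a genotype in 7 cases and form a time course.

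The members were spread over the genome, with 49 on chromosome I, 50 on chromosome II and 15 on chromosome III. A single exon made up 54.4% of them, against 51.7% of all protein-coding genes, and the median spliced length was 1875 bases against 1682. On the opposite strand, 59 members overlapped another gene of the files, a protein-coding one for 42. The libraries were stranded, but the strand setting used in counting could not be learned from the sources used here, so reads of such partners may not be fully separate.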

How the data were processed

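Poly(A)+ RNA from 24 libraries was sequenced in paired ends with a stranded kit. According to the submitters' processing notes and the methods of the study, reads were aligned with HISAT2 2.1.0 to ASM294v2, handled with SAMtools, counted with HTSeq 0.10.0, with group comparisons by DESeq2. The authors deposited 7 tables of 6987 rows, each holding for WT and 1 pho7Δ group the average signal, which is a mean of normalized counts over the 3 replicates. The deposited tables also hold the authors' own comparisons: a log2 fold change with its standard error, a score (the test statistic), a p-value and an adjusted p-value. These columns and the authors' overall mean were not used. Columns of other samples numbered 0.

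With 1 average per gene and group there was no test and no error estimate. Log2 ratios of averages were taken without a pseudocount (0). A gene was measured in a comparison when the greater average was at least 100, and counted when it was also 2-fold or more apart. The counting was tested on simulated averages with set fold changes and no added noise. That checks the counting itself and not the error of the averages. Libraries could not be left out, and precision per library was not analysed here.

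Members and lists were chosen with earlier results of these data known. Classes of 5 genes (rrp1, rrp2, nop52, utp502 and rrp16) were corrected from the gene descriptions and not from values. Genes given in every group were the lowest and highest of each module by the median over the 6 starved times, those past 2-fold at 0 h, the extremes of WT average and 3 related pairs; others were named after their values were seen. Promoters, lengths and overlaps came from RefSeq ASM294v3, matched by systematic ID for all 114 members and 5106 of 5126 protein-coding genes, and no coordinate was carried between builds. Alternatives were scaling to equal sums or to equal medians of protein-coding genes, a 1.5-fold limit, a minimum average of 10 or none, a pseudocount of 10, and leaving out members with a gene on the opposite strand; leaving out exosome subunits, other helicases, rrp1 and rrp2 was added after the data were seen. Python 3.11.15, pandas 2.3.3, NumPy 2.4.6 and Matplotlib 3.10.9 were used.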

Additional observations from a re-analysis of the deposited data

How the results depend on the processing

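Every count rests on 1 average per group, so neither spread nor depth could be weighed, and leaving out replicates was not run. No paired analysis was possible because the values used are group averages. Against pho7Δ at 0 h, leaving out the 59 members with a gene on the opposite strand gave 9, 25, 23, 24, 26 and 26 lower members of 55 at the 6 times. A 1.5-fold limit gave 77, 87, 82 and 76 at 4, 8, 12 and 24 h, and scaling to equal sums gave 30 in place of 46 at 12 h. Against WT, leaving out the overlapping members gave 1, 18, 26, 21, 24, 24 and 25 at 0 to 48 h, a 1.5-fold limit gave 11, 64, 84, 76, 79, 79 and 82, and equal sums gave 6 in place of 3 at 0 h. The causes of these moves were not tested, except that fewer members or a looser limit set them by construction. Shares of all genes at the 1.5-fold limit are not given here. The members' median moved by over 0.1 to -0.78 at 24 h and -0.81 at 48 h with equal sums, and to -0.79 at 36 h without the overlapping members. Relative to pho7Δ at 0 h, equal sums moved the median of all genes by over 0.1 at 24 h (0.11) and 48 h (0.13), and relative to WT at 0 h (-0.14), 4 h (-0.17) and 8 h (-0.12). The small minus large subunit difference reversed without the overlapping members, to -0.037, -0.028, -0.21, -0.26, -0.26 and -0.17, and its cause was not tested. No count moved by over 1.5 times, no median of the members by over 0.1 and no subunit difference changed sign, as far as each was run, with equal medians, a minimum average of 10 or none, a pseudocount of 10, or without the exosome, other helicases, rrp1 and rrp2.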
